A study of Rattus norvegicus with 18 samples.

Results

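What rat liver epithelial cells change with time in culture alone was read from 6 of the 18 arrays of the series, 3 vehicle cultures taken at 72 h and 3 taken at 6 h. The cells were WB-F344, a stem-like epithelial line derived from rat liver, at passages 14 to 16 and confluent on 60 mm dishes when exposure began. The vehicle cultures received 0.1% DMSO and no PCB126. The other 12 arrays served as comparison and for the estimate of spread: DMSO at 24 h, and 100 nM PCB126, a dioxin-like polychlorinated biphenyl that activates the aryl hydrocarbon receptor, at 6, 24 and 72 h, with 3 arrays each. All groups come from the same line, so every change is a change within 1 cell line, and vehicle exposure lasted as long as the culture, so that time in culture and time in DMSO cannot be told apart. The labels call the 3 samples of a group independent repeats but leave unsaid how they were grown apart, and the p-values can reflect no more than the spread among them. The sources used here do not state whether the medium was renewed.

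WB-F344 cells grow as a contact-inhibited monolayer and are used as a model of liver progenitor cells. When an epithelial culture stays confluent, contact between cells restrains entry into the cell cycle. Motor, kinetochore and spindle proteins of mitosis are made late in the cycle of dividing cells. The same cells lay down a basement membrane and interstitial matrix, make their own sterols and fatty acids under control of the SREBP factors, and answer a shortage of amino acids through the transcription factor ATF4.

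RNA was measured on Affymetrix rat exon arrays, and each gene was given the median of those probe sets that carry its symbol and no other, on the log2 scale, so that a difference of 1 is a 2-fold change. Array values are bright or dim for each gene's own probes, and levels are therefore compared within a gene and not between genes. A gene was called when the Benjamini-Hochberg adjusted p of limma's moderated test over 16988 genes was under 0.05, and changes below are DMSO 72 h minus DMSO 6 h. In all, 703 genes (4.14%) were called, 147 higher (0.865%) and 556 lower (3.27%) at 72 h, of which 39 and 58 changed at least 2-fold. In 700 of the 703 the 3 values at 72 h and the 3 at 6 h did not overlap, as in 4417 of all 16988 genes (26%), so that separate groups among called genes are the rule. The median change of all genes was -0.05 and the median standard error 0.18.

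The direction of the calls depended on the scaling between arrays. The median over genes was 6.54, 6.50 and 6.42 on the 3 arrays at 6 h and 6.35, 6.32 and 6.35 at 72 h, although the authors' normalisation had brought the medians over all probe sets together. Centring each array on its gene median raised every change by 0.15, and then 531 genes were called, 312 higher (1.84%) and 219 lower (1.29%), so that the share of higher calls went from 20.9% to 58.8%. With quantile normalisation of the gene values it was 43.4% of 488 calls. All 147 genes called higher and 219 of those called lower were called in both ways, and 0 of these 366 changed sign. The list medians and calls below are therefore given both as deposited and with arrays centred, and the share in brackets after a list's count, members called in either direction as deposited, is to be read against the 4.14% of all genes. That background was not matched for level, and calls were rarer among dim genes. Of 3504 genes with a mean level up to 4, 15 were called higher and 6 lower. Of 2437 genes between 7 and 8, 21 were called higher and 174 lower. A share somewhat above 4.14% can therefore reflect the level of a list's members, which was not tested. The count of calls also rested on single arrays: it was 293, 161 and 373 without replicate 1, 2 or 3 of DMSO at 6 h, and 245, 543 and 205 without replicate 1, 2 or 3 of DMSO at 72 h.

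**Figure D1:**
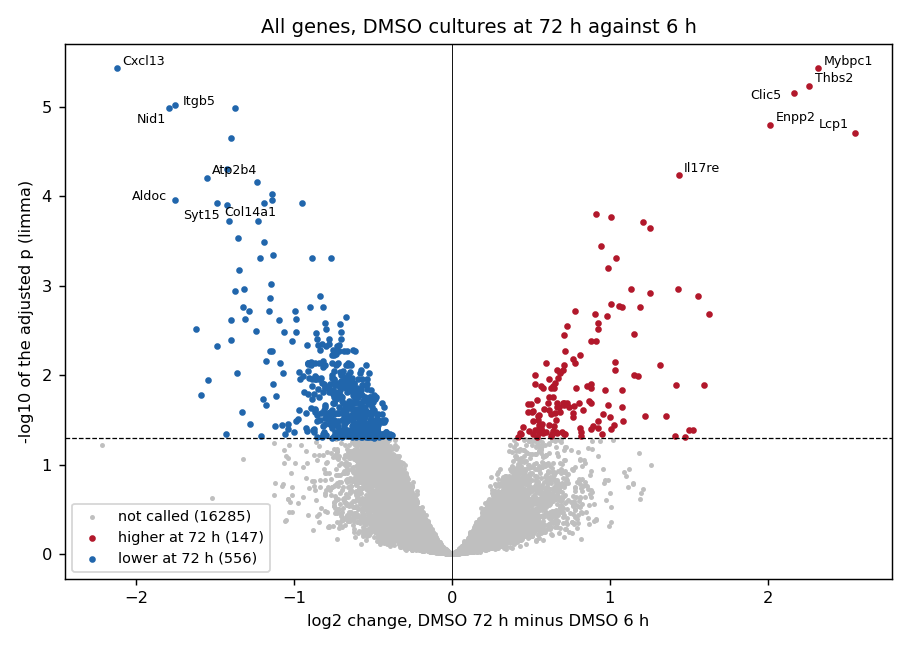
Each point is 1 of 16988 genes, with its log2 change between DMSO 6 h and 72 h on the horizontal axis and the -log10 adjusted p of limma on the vertical axis. Red and blue points are the 147 genes called higher and the 556 called lower, the dashed line is the threshold of 0.05, and names mark the leading genes with the smallest adjusted p.

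Marker genes of liver cell types were followed over time. Probes differ in brightness and no detection calls were used, so these values do not show which markers were present or absent, and the label of the cells could not be checked this way. The summed level of 17 measured hepatocyte markers was 8.06 to 8.11 at 6 h and 8.16 to 8.34 at 72 h, with 0 called by limma. That of 22 biliary and progenitor markers was 13.12 to 13.40 at 6 h and 13.07 to 13.16 at 72 h, with 1 called. That of 18 mesenchymal and stellate markers was 13.38 to 13.60 and 12.93 to 13.19, with 2 called, that of 15 endothelial markers 9.42 to 9.55 and 9.49 to 9.56, with 1 called, and that of 18 blood markers 10.34 to 10.60 and 10.36 to 10.61, with 0 called. In this order the called shares were 0%, 4.55%, 11.1%, 6.67% and 0%, against 4.14% of all genes. With arrays centred, the hepatocyte and biliary lists had 1 member each called higher. The mesenchymal and endothelial lists then had 1 each called lower, and the blood list had 0 calls. Sox9, a transcription factor of bile duct and progenitor cells, read 6.88, 6.80 and 7.06 at 6 h and 7.65, 7.61 and 7.62 at 72 h and rose by 0.71 (SE 0.16, adjusted p = 0.0204). Ncam1, a neural adhesion molecule that stellate cells also carry, read 8.64, 8.98 and 8.72 at 6 h and 7.92, 8.05 and 7.96 at 72 h and fell by 0.81 (SE 0.15, adjusted p = 0.0076). The intermediate filament gene Vim fell by 0.48 (SE 0.12, adjusted p = 0.0323), and Flt1, a VEGF receptor, fell by 0.83 (SE 0.14, adjusted p = 0.00524). As deposited, the summed mesenchymal level was thus lower in all 3 cultures at 72 h than in any at 6 h. A sum of levels rests mostly on its bright members. Of the 18 members 8 changed upward and 10 downward, with a median of -0.13, or 0.02 with arrays centred. The part of the summed level in the matrix results below was not tested. In an RNA extract of a whole dish, fewer cells of a type and less RNA per cell cannot be told apart. When each array was left out in turn, the call of Flt1 held each time. In a fit without 1 array, the call was lost for Ncam1 without DMSO 6 h replicate 2 (adjusted p 0.053). Sox9 lost its call without 4 of the 6 (highest adjusted p 0.103). Vim lost its call without 5 of the 6 (highest adjusted p 0.148). With arrays centred Vim did not pass (adjusted p = 0.0991). In the list of hepatocyte markers the largest change belonged to Cyp8b1 (0.77, adjusted p = 0.224) and in that of blood markers to S100a9 (-0.48, adjusted p = 0.428), neither called.

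The 12 largest rises and the 12 largest falls described next were chosen among called genes whose groups do not overlap, so that their separation is given by the choice. Lcp1, which encodes the actin-bundling protein L-plastin, read 4.94, 5.11 and 5.50 at 6 h and 7.75, 7.72 and 7.74 at 72 h and rose by 2.55 (SE 0.24, adjusted p = 1.97e-05), a 5.87-fold increase. Mybpc1, a myosin-binding protein of slow muscle, read 5.97, 5.35 and 5.89 at 6 h and 8.09, 8.06 and 8.02 at 72 h and rose by 2.32 (SE 0.17, adjusted p = 3.73e-06). Thbs2, the matricellular glycoprotein thrombospondin 2, read 6.15, 5.80 and 6.38 at 6 h and 8.27, 8.72 and 8.13 at 72 h and rose by 2.26 (SE 0.18, adjusted p = 5.89e-06). The 3 cultures at 72 h lay close together for Lcp1 and Mybpc1. Clic5, a chloride intracellular channel protein tied to cortical actin, read 6.90, 6.94 and 6.73 at 6 h and 9.13, 8.70 and 9.25 at 72 h and rose by 2.17 (SE 0.18, adjusted p = 7.09e-06). Enpp2, the secreted enzyme autotaxin that makes lysophosphatidic acid, read 9.43, 8.92 and 9.25 at 6 h and 11.29, 11.11 and 11.24 at 72 h and rose by 2.02 (SE 0.18, adjusted p = 1.60e-05). Nupr1, a small stress-induced chromatin protein, read 8.94, 9.23 and 8.71 at 6 h and 10.44, 10.53 and 10.80 at 72 h and rose by 1.63 (SE 0.25, adjusted p = 0.00204). Values at 24 h lay between those of 6 h and 72 h in all cultures for Clic5 and Enpp2, while for Nupr1 they were 8.91, 9.06 and 9.19, all within the range at 6 h.

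The other 6 of the 12 largest rises were smaller. C1qtnf6, a secreted protein of the C1q and TNF related family, read 5.30, 5.72 and 5.48 at 6 h and 7.62, 6.43 and 7.13 at 72 h and rose by 1.56 (SE 0.22, adjusted p = 0.00131). Il17re, the receptor chain for interleukin 17C on epithelial cells, read 8.01, 7.69 and 7.82 at 6 h and 9.18, 9.23 and 9.43 at 72 h and rose by 1.44 (SE 0.15, adjusted p = 5.82e-05). Prg-3 (current symbol Plppr1), a membrane protein of the lipid phosphatase-related family, read 6.69, 6.29 and 6.33 at 6 h and 7.89, 7.87 and 7.85 at 72 h and rose by 1.43 (SE 0.20, adjusted p = 0.00109). The 3 cultures at 72 h lay close together for Prg-3 and spread widely for C1qtnf6. Mal2, a carrier of apical transcytosis in polarised epithelia, rose by 1.47 (SE 0.40, adjusted p = 0.0482). The other two, Olr30 (current symbol Or14c39b) and Olr87 (Or52e19), are olfactory receptor genes measured by 1 probe set each (mean 1.61 and 2.50 at 6 h), and rose by 1.60 (adjusted p = 0.0127) and by 1.53 (adjusted p = 0.0407). With any single array of the 6 removed, the calls of Lcp1, Mybpc1, Thbs2, Clic5, Enpp2, Nupr1, C1qtnf6, Il17re and Prg-3 held each time. With either of 2 arrays left out, the call was lost for Olr30 without DMSO 6 h replicate 1 and DMSO 72 h replicate 3 (adjusted p up to 0.0713). Mal2 and Olr87 lost their call without 5 of the 6 each (highest adjusted p 0.213 and 0.185).

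The falls were led by Cxcl13. Cxcl13, a chemokine that attracts B cells, read 10.53, 10.68 and 10.37 at 6 h and 8.21, 8.52 and 8.48 at 72 h and fell by 2.12 (SE 0.16, adjusted p = 3.73e-06). Nid1, nidogen 1, which links laminin to type IV collagen in basement membranes, read 9.27, 9.44 and 9.06 at 6 h and 7.50, 7.62 and 7.28 at 72 h and fell by 1.79 (SE 0.15, adjusted p = 1.05e-05). Itgb5, the integrin subunit that pairs with the αv chain to bind vitronectin, read 10.30, 10.61 and 10.26 at 6 h and 8.56, 8.85 and 8.51 at 72 h and fell by 1.75 (SE 0.15, adjusted p = 9.49e-06). In each of the 3 genes the cultures at 24 h lay between the groups. Aldoc, the brain-type aldolase of glycolysis, read 7.36, 7.14 and 6.88 at 6 h and 5.37, 5.20 and 5.55 at 72 h and fell by 1.75 (SE 0.19, adjusted p = 1.09e-04). Enc1, an actin-associated kelch protein, fell by 1.62 (SE 0.26, adjusted p = 0.00305), and Atp2b4, a calcium pump of the plasma membrane, fell by 1.55 (SE 0.16, adjusted p = 6.19e-05). Col14a1, a collagen that associates with fibrils, read 8.33, 8.14 and 8.07 at 6 h and 6.40, 7.10 and 6.59 at 72 h and fell by 1.49 (SE 0.17, adjusted p = 1.20e-04). Syt15, a synaptotagmin, fell by 1.43 (SE 0.16, adjusted p = 1.25e-04), and Oasl, an interferon-induced protein of the oligoadenylate synthetase family, fell by 1.49 (SE 0.25, adjusted p = 0.00465).

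The remaining 3 of the 12 largest falls were as follows. Calml4, a calmodulin-like protein, fell by 1.59 (SE 0.34, adjusted p = 0.0164), Nat8b, an acetyltransferase of the NAT8 family, fell by 1.55 (SE 0.31, adjusted p = 0.0114), and RGD1563562 (current symbol Tgap1l11), with values of 3.47, 2.89 and 2.97 at 6 h, fell by 1.43 (SE 0.38, adjusted p = 0.0457). With each of the 6 arrays left out in turn, the calls of Cxcl13, Nid1, Itgb5, Aldoc, Enc1, Atp2b4, Col14a1, Syt15 and Oasl held each time. With 1 array left out, the call was lost for Nat8b without DMSO 6 h replicate 2 (adjusted p 0.0527). Calml4 lost its call without 4 of the 6 (highest adjusted p 0.0793). RGD1563562 lost its call without 6 of the 6 (highest adjusted p 0.16). With arrays centred the fall of RGD1563562 no longer passed (adjusted p = 0.101), while the other leading falls and all 12 leading rises did.

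**Figure D2:**
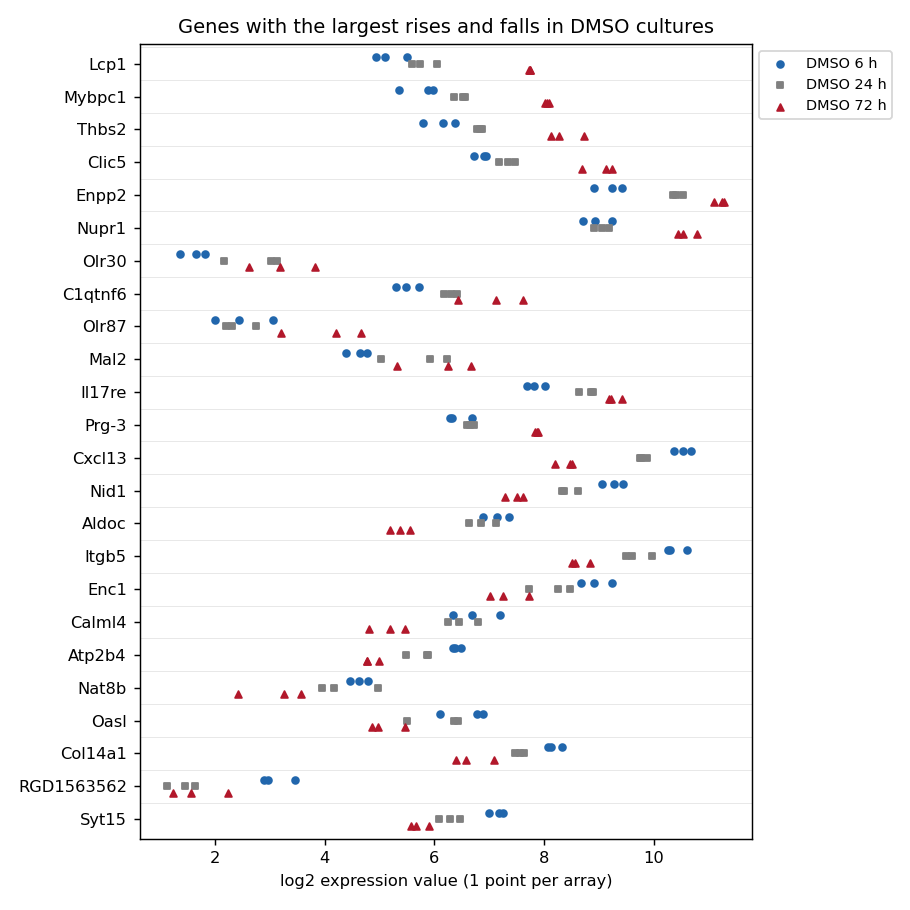
Log2 expression values of the 12 genes with the largest rises (upper rows) and the 12 with the largest falls (lower rows), 1 point per DMSO array, with circles for 6 h, squares for 24 h and triangles for 72 h. The circles and triangles of a gene do not overlap, as the choice of these genes required, and in most rows the squares lie between them.

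Called falls were frequent among genes of mitosis. Of 33 measured genes of mitosis and chromosome segregation, 11 were called lower and 0 higher (33.3%, against 4.14% of all genes), 32 of 33 changes were negative and the median change was -0.50, or -0.35 with arrays centred, when 4 were called. The values of 24 of the 33 did not overlap between 6 h and 72 h, against 26% of all genes. Cenpf, a kinetochore protein made late in the cycle, read 7.36, 7.80 and 7.39 at 6 h and 6.34, 6.56 and 6.26 at 72 h and fell by 1.13 (SE 0.23, adjusted p = 0.0124). Kif23, the kinesin of the central spindle that cytokinesis needs, read 7.80, 8.29 and 8.09 at 6 h and 6.90, 7.34 and 7.16 at 72 h and fell by 0.93 (SE 0.22, adjusted p = 0.0262). Cenpe, the kinetochore motor that aligns chromosomes, read 4.88, 5.14 and 4.95 at 6 h and 4.14, 4.36 and 3.70 at 72 h and fell by 0.92 (SE 0.24, adjusted p = 0.0388). In each of them all 3 cultures at 72 h were below all 3 at 6 h. Mki67, the Ki-67 antigen of cycling cells, read 7.92, 8.31 and 8.06 at 6 h and 7.26, 7.28 and 7.17 at 72 h and fell by 0.86 (SE 0.23, adjusted p = 0.0492), again with no overlap. The other called members, which are named beyond the rule for named genes, were the checkpoint kinase Bub1 (-0.81), the phosphatase Cdc25b (-0.78), the kinesins Kif2c (-0.71) and Kif20a (-0.65), the kinetochore protein Ndc80 (-0.73), the spindle factor Tpx2 (-0.63) and topoisomerase Top2a (-0.58).

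These calls lay close to the threshold. Cenpf lost its call without 3 of the 6 (highest adjusted p 0.0741). Kif23 and Cdc25b lost their call without 4 of the 6 each (highest adjusted p 0.131 and 0.0744). Cenpe and Kif2c lost their call without 5 of the 6 each (highest adjusted p 0.181 and 0.16). Mki67, Bub1, Kif20a, Ndc80, Tpx2 and Top2a lost their call without 6 of the 6 each (highest adjusted p 0.203, 0.174, 0.105, 0.096, 0.19 and 0.184). With arrays centred Kif23, Cenpe, Mki67, Bub1, Kif2c, Tpx2 and Top2a did not pass (adjusted p = 0.05003, 0.0664, 0.106, 0.0734, 0.121, 0.126 and 0.138). Cenpf, Cdc25b, Kif20a and Ndc80 kept the call. At 24 h the median change of the list was -0.43 and no member was called by limma. On the single arrays the list's median deviation from the mean of DMSO at 6 h was -0.16, 0.14 and 0.05 at 6 h, -0.56, -0.26 and -0.51 at 24 h and -0.52, -0.54 and -0.58 at 72 h. The 3 arrays at 72 h thus lay closer together than those at 6 h and 24 h.

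Of 30 measured genes of DNA replication and nucleotide synthesis 1 was called lower and 0 higher (3.33%, against 4.14% of all genes), a share near the background, with a median of -0.14 that became 0.01 with arrays centred. The called gene was Pole, the catalytic subunit of DNA polymerase ε, which read 7.02, 7.19 and 7.19 at 6 h and 6.59, 6.50 and 6.43 at 72 h and fell by 0.63 (SE 0.15, adjusted p = 0.0253), with no overlap between the groups. It lost the call without each of the 6 arrays (highest p 0.107) and with arrays centred (0.0645). The difference between the lists was not tested.

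The promoters of the named mitotic genes and of Pole are shown because genes of late and early cell cycle phases are known to differ in their promoter elements. Late genes often carry CCAAT boxes, bound by NF-Y, and a cell cycle homology region with the letters TTTGAA, bound by the DREAM and B-MYB complexes, while replication genes often carry E2F sites. The E2F forms searched were TTTGGCG, called the first below, and the second, with letters TTTCCCG. The sequences run from 250 bases before to 50 after the annotated start, 5′ to 3′ on the gene's strand, from RefSeq on build GRCr8, with the motifs on either strand in capitals. In Mki67 a copy of the homology region shares its last base with an inverted CCAAT box, so that the capitals run together.
Cenpf (chr13:103760837-103761136, minus strand): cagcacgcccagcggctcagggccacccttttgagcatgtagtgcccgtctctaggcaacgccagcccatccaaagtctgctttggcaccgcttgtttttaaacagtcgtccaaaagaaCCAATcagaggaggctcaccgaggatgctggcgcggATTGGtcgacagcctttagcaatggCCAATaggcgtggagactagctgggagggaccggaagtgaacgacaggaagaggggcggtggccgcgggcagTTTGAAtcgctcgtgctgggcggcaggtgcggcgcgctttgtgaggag
Kif23 (chr8:71320535-71320834, minus strand): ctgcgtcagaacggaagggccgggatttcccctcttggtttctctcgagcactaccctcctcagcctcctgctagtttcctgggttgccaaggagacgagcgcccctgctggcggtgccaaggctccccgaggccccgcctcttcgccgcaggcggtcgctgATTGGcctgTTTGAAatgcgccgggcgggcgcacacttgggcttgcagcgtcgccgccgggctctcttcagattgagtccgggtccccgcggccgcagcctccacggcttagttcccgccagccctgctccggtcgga
Cenpe (chr2:226310807-226311106, plus strand): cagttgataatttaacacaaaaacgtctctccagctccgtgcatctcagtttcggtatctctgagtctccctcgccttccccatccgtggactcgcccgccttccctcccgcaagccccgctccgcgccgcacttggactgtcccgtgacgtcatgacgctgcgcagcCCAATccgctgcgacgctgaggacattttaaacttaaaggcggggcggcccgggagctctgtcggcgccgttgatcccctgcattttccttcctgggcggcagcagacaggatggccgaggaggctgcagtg
Mki67 (chr1:199952544-199952843, minus strand): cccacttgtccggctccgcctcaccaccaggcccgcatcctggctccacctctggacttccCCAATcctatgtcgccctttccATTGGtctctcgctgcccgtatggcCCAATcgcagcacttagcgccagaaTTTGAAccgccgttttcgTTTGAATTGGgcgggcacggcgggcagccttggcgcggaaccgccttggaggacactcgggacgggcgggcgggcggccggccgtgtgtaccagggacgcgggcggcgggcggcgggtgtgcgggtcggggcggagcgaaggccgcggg
Pole (chr12:52053613-52053912, minus strand): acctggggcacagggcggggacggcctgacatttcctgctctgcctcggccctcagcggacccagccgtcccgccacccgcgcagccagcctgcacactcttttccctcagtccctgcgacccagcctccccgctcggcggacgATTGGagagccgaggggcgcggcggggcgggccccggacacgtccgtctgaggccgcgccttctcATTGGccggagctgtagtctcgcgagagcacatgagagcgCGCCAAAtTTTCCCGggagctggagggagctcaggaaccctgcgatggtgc

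Cenpf held 3 CCAAT boxes and 1 copy of the homology region, Kif23 held 1 of each, Cenpe held 1 box and no homology region, and Mki67 held 4 boxes and 2 homology regions. Pole held 2 boxes and 1 of each E2F form. The homology region letters were found in 20 of the 27 mitotic promoters that matched (74.1%), in 5 of 9 belonging to called members (55.6%), in 1 of 23 replication promoters (4.35%) and in 18.3% of all 33469 promoters. The CCAAT box was found in 20 of the 27 (74.1%), in 15 of the 23 (65.2%) and in 37.5% of all. The first E2F form was found in 0 of the 27, in 9 of the 23 (39.1%) and in 1.45% of all, and the second in 0, 7 (30.4%) and 3.57%. A match describes letters in this window and shows no binding.

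Regulators of the cell cycle outside mitosis had calls in both directions. Of 20 measured D cyclins, CDK inhibitors and quiescence genes, 2 rose and 2 fell (20%, median -0.14, centred 0.01 with 4 called higher and 1 lower). Ccnd1, the G1 cyclin D1, read 7.48, 7.44 and 7.64 at 6 h and 6.82, 7.02 and 6.63 at 72 h and fell by 0.70 (SE 0.15, adjusted p = 0.0192). Its relative Ccnd2 read 9.87, 9.96 and 9.79 at 6 h and 10.47, 10.56 and 10.64 at 72 h and rose by 0.69 (SE 0.13, adjusted p = 0.00942). The 2 cyclins thus moved in opposite directions, each with no overlap. Ccng1, a p53-induced cyclin, rose by 0.64 (SE 0.14, adjusted p = 0.0174), and Rbl2, the pocket protein p130 of quiescent cells, fell by 0.63 (SE 0.16, adjusted p = 0.0361). Of 20 p53 targets 2 rose and 3 fell (25%, median -0.12, centred 0.03 with 2 called higher and 0 lower). Gadd45a, a stress-induced growth arrest gene, rose by 0.66 (SE 0.16, adjusted p = 0.0314), as did Ccng1, while the kinase Plk2 fell by 0.70 (SE 0.19, adjusted p = 0.0492) and Phlda3, an inhibitor of AKT, fell by 0.54 (SE 0.14, adjusted p = 0.0388). The death receptor Tnfrsf10b was the other called fall (-0.51). By leaving out 1 array, the call was lost for Ccnd2 without DMSO 72 h replicate 3 (adjusted p 0.051). Ccng1 lost its call without 4 of the 6 (highest adjusted p 0.105). Ccnd1, Gadd45a, Plk2 and Phlda3 lost their call without 5 of the 6 each (highest adjusted p 0.0997, 0.131, 0.203 and 0.17). Rbl2 and Tnfrsf10b lost their call without 6 of the 6 each (highest adjusted p 0.138 and 0.114). With arrays centred Ccnd1, Plk2, Phlda3 and Tnfrsf10b did not pass (adjusted p = 0.0556, 0.0664, 0.135 and 0.131).

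Of 18 measured genes of sterol synthesis 4 fell and 0 rose (22.2%, against 4.14% of all genes), with 16 negative changes and a median of -0.34 (-0.19 with arrays centred, when 0 were called higher and 3 lower). Hsd17b7, a ketosteroid reductase of the late pathway, read 7.67, 7.62 and 7.43 at 6 h and 6.83, 6.85 and 6.61 at 72 h and fell by 0.81 (SE 0.17, adjusted p = 0.0134). Dhcr7, the last enzyme of cholesterol synthesis, read 9.65, 9.97 and 9.56 at 6 h and 9.07, 9.20 and 8.95 at 72 h and fell by 0.66 (SE 0.12, adjusted p = 0.0076). Lss, lanosterol synthase, read 9.65, 9.56 and 9.33 at 6 h and 8.92, 8.94 and 8.73 at 72 h and fell by 0.65 (SE 0.13, adjusted p = 0.0109). All 3 cultures at 72 h were below those at 6 h for each of them, and also for Nsdhl, a sterol dehydrogenase, which fell by 0.47 (SE 0.13, adjusted p = 0.0477). Of 20 measured genes of fatty acid and glycerolipid synthesis 6 fell and 0 rose (30.0%, against 4.14% of all genes), 5 changes were positive, and the median was -0.32 (-0.17 with arrays centred, when 1 was called higher and 2 lower). Fads2, the delta-6 desaturase, read 11.41, 11.25 and 11.07 at 6 h and 10.76, 10.70 and 10.13 at 72 h and fell by 0.72 (SE 0.17, adjusted p = 0.0261). Scd, the stearoyl-CoA desaturase, read 11.71, 11.82 and 11.66 at 6 h and 11.04, 11.20 and 11.09 at 72 h and fell by 0.62 (SE 0.13, adjusted p = 0.0123), with no overlap in either gene. Acaca, which makes malonyl-CoA, fell by 0.63 (SE 0.16, adjusted p = 0.041), and Acsl3, an acyl-CoA synthetase, fell by 0.63 (SE 0.13, adjusted p = 0.0147). The other called members were Elovl6, an elongase (-0.54), and the desaturase Fads1 (-0.52).

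Several of these calls rested on single arrays. Leaving out 1 of the 6 arrays at a time, the call of Elovl6 held each time. With 1 array left out, the call was lost for Dhcr7 without DMSO 6 h replicate 2 (adjusted p 0.0527). Hsd17b7, Lss, Fads2 and Scd lost their call without 3 of the 6 each (highest adjusted p 0.0713, 0.0608, 0.127 and 0.0675). Acsl3 and Fads1 lost their call without 4 of the 6 each (highest adjusted p 0.0755 and 0.109). Nsdhl and Acaca lost their call without 5 of the 6 each (highest adjusted p 0.207 and 0.186). With arrays centred Nsdhl, Fads2, Scd, Acaca and Fads1 did not pass (adjusted p = 0.137, 0.0846, 0.093, 0.0931 and 0.103). At 24 h the median change was -0.17 for sterol and -0.20 for fatty acid synthesis. Genes of fatty acid oxidation and PPAR targets had 0 of 25 members called by limma, with a median of -0.05 (0.10 centred) and the largest change in Cd36, a fatty acid transporter (-0.52, adjusted p = 0.233). Cdig2, the older symbol under which the array lists Npc1, the lysosomal cholesterol exporter, fell by 0.63 (SE 0.15, adjusted p = 0.0268), and was the 1 called member among 26 lysosome and autophagy genes (3.85%, median 0.05, centred 0.20 with 2 called higher and 0 lower). It lost the call without 5 of the 6 (highest p 0.13) and with arrays centred (0.114).

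Among 28 genes of hypoxia and glycolysis 4 fell and 0 rose (14.3%, median -0.10, centred 0.05 with 1 called higher and 1 lower). Beside Aldoc, described above, these were Pfkfb4, which sets fructose-2,6-bisphosphate, by 0.54, the platelet phosphofructokinase Pfkp by 0.49 and glucose phosphate isomerase Gpi by 0.40 (adjusted p = 0.0457, 0.0254 and 0.0485). When single arrays were left out, the call of Aldoc held each time. Pfkp lost its call without 5 of the 6 (highest adjusted p 0.108). Pfkfb4 and Gpi lost their call without 6 of the 6 each (highest adjusted p 0.193 and 0.199). With arrays centred Aldoc alone of the 4 passed.

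Of 29 measured genes of the amino acid response and the unfolded protein response 6 rose and 0 fell (20.7%, against 4.14% of all genes). In this list 20 changes were positive and 9 negative, and the median was 0.40, or 0.55 with arrays centred, when 9 were called higher and 0 lower. The 6 called genes are known from the amino acid response, and the chaperones and chaperone partners of the list, Hspa5, Pdia4, Calr and Dnajb9 among them (changes -0.02, 0.06, -0.10 and 0.69, adjusted p = 0.969, 0.864, 0.662 and 0.051), were not called. The 23 members not called also included others known from the amino acid response, such as Asns, Ddit3, Trib3, Chac1 and Phgdh. The calls thus do not split the list into its 2 responses. This was the highest median among the lists compared. Atf4, the transcription factor that drives the response, read 9.03, 9.68 and 9.15 at 6 h and 10.32, 10.27 and 10.24 at 72 h and rose by 0.99 (SE 0.22, adjusted p = 0.0217). Mthfd2, its target in mitochondrial one-carbon metabolism, read 6.39, 6.69 and 6.74 at 6 h and 7.75, 7.58 and 7.95 at 72 h and rose by 1.15 (SE 0.19, adjusted p = 0.00345). Psat1, an aminotransferase of serine synthesis, read 10.96, 10.47 and 10.48 at 6 h and 11.53, 11.54 and 11.26 at 72 h and rose by 0.80 (SE 0.18, adjusted p = 0.0204). The groups did not overlap in any of the 3, and the cultures at 72 h were closest together for Atf4. Shmt2, the mitochondrial serine hydroxymethyltransferase, rose by 0.63 (SE 0.15, adjusted p = 0.027), as did Pycs (current symbol Aldh18a1, 0.55), which starts proline synthesis, and the amino acid transporter chain Slc3a2 (0.50). At 24 h the list's median change was 0.02, and on the single arrays its median deviation from the mean at 6 h was 0.05, 0.05 and 0.03 at 24 h and 0.31, 0.22 and 0.49 at 72 h. With any single array of the 6 removed, the call of Mthfd2 held each time. Psat1 and Slc3a2 lost their call without 4 of the 6 each (highest adjusted p 0.106 and 0.0989). Atf4 and Shmt2 lost their call without 5 of the 6 each (highest adjusted p 0.0948 and 0.137). Pycs lost its call without 6 of the 6 (highest adjusted p 0.135).

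Of 22 measured starvation, FOXO and glucose-sensing genes 1 rose and 3 fell (18.2%, median -0.09, centred 0.06 with 3 called higher and 0 lower). Klf9, a Krüppel-like factor induced by glucocorticoids, rose by 0.48, and Bcl6, a transcriptional repressor, fell by 0.56, Txnip, the glucose-induced thioredoxin inhibitor, by 0.54 and the glucocorticoid-induced Fkbp5 by 0.54 (adjusted p = 0.0257, 0.0391, 0.0177 and 0.0492). Txnip lost its call without 4 of the 6 (highest adjusted p 0.0829). Klf9, Bcl6 and Fkbp5 lost their call without 6 of the 6 each (highest adjusted p 0.105, 0.158 and 0.16). With arrays centred, Klf9 alone of these 4 passed, so that called falls were found under the deposited scaling and not under the centred one. Ribosome biogenesis and MYC target genes had 0 of 26 members called by limma and a median of -0.00 (0.15 centred), with the largest change in Nip7 (0.63, adjusted p = 0.161).

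Genes of the extracellular matrix were called lower more often than higher, as were all genes (3.27% lower and 0.865% higher). Of 31 collagens and collagen-modifying genes 7 fell and 0 rose (22.6%, median -0.17, centred -0.02 with 0 called higher and 4 lower). Col1a2, a chain of fibrillar type I collagen, read 11.10, 11.39 and 11.32 at 6 h and 10.38, 10.39 and 10.28 at 72 h and fell by 0.92 (SE 0.16, adjusted p = 0.00463). Plod2, the lysyl hydroxylase of collagen telopeptides, read 9.69, 9.61 and 9.65 at 6 h and 8.79, 9.05 and 8.91 at 72 h and fell by 0.73 (SE 0.14, adjusted p = 0.0076). In both, and in Col14a1, the groups were separate. Col12a1, another collagen that associates with fibrils, fell by 0.81 (SE 0.18, adjusted p = 0.0213), and Col5a1 (-0.62), Col16a1 (-0.52) and Col18a1 (-0.49) also fell. Of 27 genes of the basement membrane and integrins 4 fell and 0 rose (14.8%, median -0.14, centred 0.01 with 0 called higher and 2 lower): Nid1 and Itgb5, and by smaller amounts the heparan sulfate proteoglycan agrin (Agrn), which fell by 0.67 (SE 0.16, adjusted p = 0.0253), and the fibronectin receptor chain Itga5, which fell by 0.50 (SE 0.13, adjusted p = 0.0394).

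Among 29 matrix glycoproteins and proteoglycans 1 rose and 4 fell (17.2%, median -0.09, centred 0.06 with 1 called higher and 4 lower). The rise was that of Thbs2. Fbln2, fibulin 2, an adaptor of basement membranes and elastic fibres, read 10.01, 10.22 and 10.07 at 6 h and 8.60, 8.91 and 8.51 at 72 h and fell by 1.42 (SE 0.14, adjusted p = 5.00e-05). Ecm1, a secreted matrix protein, read 10.02, 10.29 and 10.05 at 6 h and 9.16, 9.49 and 9.11 at 72 h and fell by 0.86 (SE 0.14, adjusted p = 0.0034), and Prelp, a leucine-rich proteoglycan, fell by 0.80 (SE 0.14, adjusted p = 0.00471). The groups were separate in each, and Eln, tropoelastin, also fell (-0.67). Of 31 matrix proteases and inhibitors 5 fell and 0 rose (16.1%, median -0.04, centred 0.11 with 2 called higher and 3 lower). Adamts1, a protease of versican and aggrecan, read 10.96, 10.97 and 10.89 at 6 h and 9.55, 10.07 and 9.65 at 72 h and fell by 1.19 (SE 0.15, adjusted p = 3.23e-04). Its cultures at 24 h read 10.83, 11.12 and 10.78, near those at 6 h. Adamts2, which removes the amino propeptide of procollagens, fell by 0.76 (SE 0.14, adjusted p = 0.00724), and Pcolce, which enhances removal of the carboxyl propeptide, fell by 0.69 (SE 0.12, adjusted p = 0.00533). Timp1, an inhibitor of matrix metalloproteinases, fell by 0.69 (SE 0.16, adjusted p = 0.0265), and Adamts7 had the smallest called fall (-0.40). The summed level of the mesenchymal markers fell beside these genes as deposited, as given above. That marker list shares Col1a1, Col3a1, Lum and Dcn with the lists of collagens and of matrix glycoproteins. Its fall is therefore not fully separate from these lists, and the part of the shared genes in it was not tested. The called members of the marker list, Ncam1 and Vim, are in neither of these matrix lists. After removal of any 1 array, the calls of Col1a2, Plod2, Fbln2, Ecm1, Prelp, Eln, Adamts1, Adamts2 and Pcolce held each time. Col5a1, Col18a1 and Timp1 lost their call without 4 of the 6 each (highest adjusted p 0.0826, 0.125 and 0.139). Col12a1, Col16a1 and Agrn lost their call without 5 of the 6 each (highest adjusted p 0.111, 0.174 and 0.125). Itga5 and Adamts7 lost their call without 6 of the 6 each (highest adjusted p 0.169 and 0.199). With arrays centred Col5a1, Col16a1, Col18a1, Agrn, Itga5, Timp1 and Adamts7 did not pass (adjusted p = 0.0711, 0.0993, 0.154, 0.0788, 0.093, 0.0822 and 0.198).

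Genes of the cytoskeleton and of contact-sensitive signalling showed called falls in single members. Of 23 YAP and TEAD targets and factors 4 fell and 0 rose (17.4%, median -0.19, centred -0.04 with 0 called higher and 3 lower). Asap1, an ARF GTPase activator at focal adhesions, fell by 0.75 (SE 0.14, adjusted p = 0.00899). Dock5, a RAC exchange factor, fell by 0.71 (SE 0.15, adjusted p = 0.0147), Tead1, a DNA-binding partner of YAP, fell by 0.67 (SE 0.16, adjusted p = 0.0268), and the receptor kinase Axl fell by 0.60 (SE 0.12, adjusted p = 0.014). No culture at 72 h reached the range at 6 h in these 4 genes. Of 27 smooth muscle and actin-binding genes 3 fell and 0 rose (11.1%, median -0.11, centred 0.04 with 1 called higher and 1 lower): Pdlim5, an actinin-binding scaffold, by 0.74, the cross-linker Actn4 by 0.70 and vinculin (Vcl) by 0.69 (adjusted p = 0.0154, 0.00989 and 0.0137). Of 29 cell junction genes 1 rose and 1 fell (6.9%, median -0.02, centred 0.13 with 1 called higher and 0 lower). Cldn15, a pore-forming claudin, rose by 0.67 (SE 0.15, adjusted p = 0.0227), and Cgn, the tight junction adaptor cingulin, fell by 0.56 (SE 0.13, adjusted p = 0.0291). By leaving out 1 array, the call was lost for Asap1 without DMSO 6 h replicate 2 (adjusted p 0.0563). With either of 2 arrays left out, the call was lost for Actn4 without DMSO 6 h replicate 2 and DMSO 72 h replicate 3 (adjusted p up to 0.0526). Dock5, Axl and Vcl lost their call without 3 of the 6 each (highest adjusted p 0.085, 0.0745 and 0.0773). Pdlim5 and Cldn15 lost their call without 4 of the 6 each (highest adjusted p 0.0835 and 0.125). Tead1 and Cgn lost their call without 5 of the 6 each (highest adjusted p 0.137 and 0.147). Centred arrays kept the calls of Asap1, Dock5, Axl, Actn4 and Cldn15 and not those of Tead1, Pdlim5, Vcl and Cgn (adjusted p = 0.0935, 0.0555, 0.0736 and 0.0657).

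**Figure D3:**
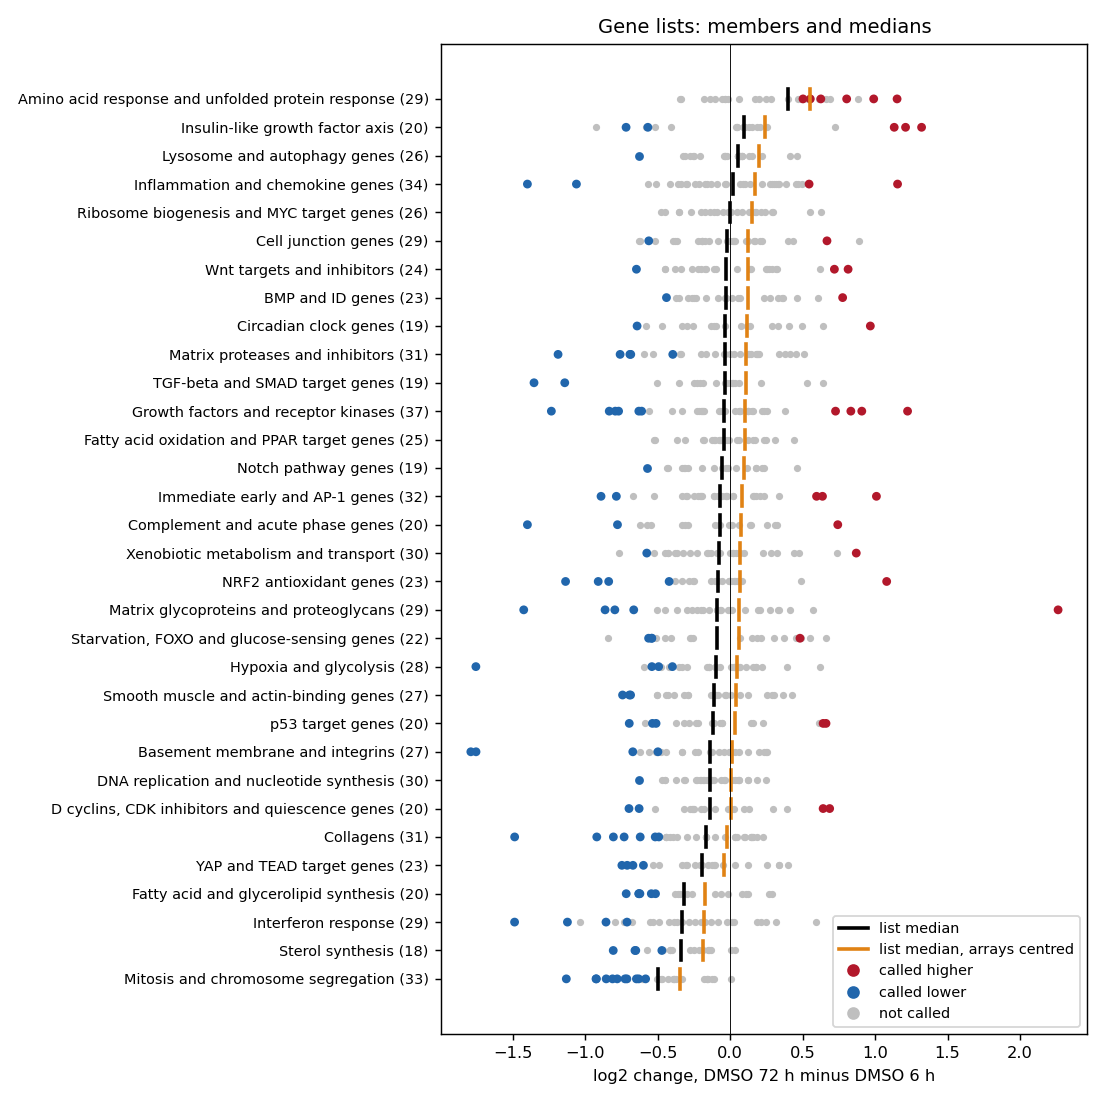
Log2 change between DMSO 6 h and 72 h of each measured member of 32 gene lists, 1 point per gene, with the number measured in brackets. Coloured points are called by limma, black bars are list medians and orange bars the medians with arrays centred, which lie 0.15 to the right. The mitosis list has the lowest median and the amino acid response list the highest.

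In the insulin-like growth factor axis, of 20 measured genes 3 rose and 2 fell (25%, median 0.09, centred 0.24 with 3 called higher and 0 lower). Igf1, the ligand, read 6.67, 6.01 and 6.07 at 6 h and 7.57, 7.36 and 7.79 at 72 h and rose by 1.32 (SE 0.24, adjusted p = 0.0076). It stood at 7.64, 7.54 and 7.46 at 24 h, so that 24 h and 72 h were alike in range. Igfbp7, a secreted protein that binds IGFs and insulin, read 8.57, 8.65 and 8.29 at 6 h and 9.72, 9.59 and 9.83 at 72 h and rose by 1.21 (SE 0.14, adjusted p = 1.93e-04). Igfbp2, an IGF carrier, read 9.35, 9.0 and 9.29 at 6 h and 10.37, 10.31 and 10.35 at 72 h and rose by 1.13 (SE 0.16, adjusted p = 0.00109). All 3 were higher in every culture at 72 h than in any at 6 h. Igf2bp3, a fetal RNA-binding protein, fell by 0.72 (SE 0.18, adjusted p = 0.0367), and Igf2r, the receptor that clears IGF2, also fell (-0.57). Of 37 growth factors and receptor kinases 4 rose and 6 fell (27%, median -0.04, centred 0.10 with 4 called higher and 5 lower). Among ligands, Fgf1 rose by 1.22 (SE 0.29, adjusted p = 0.0286) and the TIE2 ligand Angpt2 rose by 0.91 (SE 0.14, adjusted p = 0.00209), and Fgf2 (0.83) and Pdgfa (0.73) were the other called rises. All 6 falls were in receptors: the GDNF co-receptor Gfra1, which read 6.93, 6.95 and 7.10 at 6 h and 5.67, 5.84 and 5.77 at 72 h and fell by 1.23 (SE 0.13, adjusted p = 6.89e-05), the VEGF receptor Flt1, and Kit (-0.79), Met (-0.77), Erbb2 (-0.63) and Fgfr2 (-0.61). Leaving out 1 of the 6 arrays at a time, the calls of Igfbp7, Igfbp2, Angpt2 and Gfra1 held each time. With 1 array left out, the call was lost for Igf1 without DMSO 6 h replicate 2 (adjusted p 0.0524). Fgf1, Kit, Met and Erbb2 lost their call without 3 of the 6 each (highest adjusted p 0.146, 0.0716, 0.0691 and 0.0744). Igf2r and Pdgfa lost their call without 4 of the 6 each (highest adjusted p 0.111 and 0.116). Fgf2 and Fgfr2 lost their call without 5 of the 6 each (highest adjusted p 0.101 and 0.12). Igf2bp3 lost its call without 6 of the 6 (highest adjusted p 0.15). With arrays centred Igf2bp3, Igf2r and Fgfr2 did not pass (adjusted p = 0.072, 0.0711 and 0.0878).

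Of 32 immediate early and AP-1 genes 3 rose and 2 fell (15.6%, median -0.07, centred 0.08 with 3 called higher and 2 lower). Dusp1, a phosphatase of stress-activated MAP kinases, read 8.76, 8.88 and 8.94 at 6 h and 9.84, 9.92 and 9.84 at 72 h and rose by 1.01 (SE 0.12, adjusted p = 1.70e-04). Egr1, a zinc finger factor induced by growth signals, read 9.35, 9.42 and 9.02 at 6 h and 8.24, 8.66 and 8.22 at 72 h and fell by 0.89 (SE 0.17, adjusted p = 0.0076). The 2 genes moved in opposite directions with no overlap. Klf4 fell by 0.79 (SE 0.19, adjusted p = 0.0305), the early response gene Ier3 rose by 0.64 (SE 0.17, adjusted p = 0.0457) and Jun was the other called rise (0.60). Of 19 TGF-β and SMAD targets 2 fell and 0 rose (10.5%, median -0.04, centred 0.11 with 2 called higher and 2 lower): Ltbp1, which holds latent TGF-β in the matrix, read 9.21, 9.31 and 9.20 at 6 h and 7.83, 8.19 and 7.64 at 72 h and fell by 1.35 (SE 0.17, adjusted p = 2.96e-04), and Fst, the activin antagonist follistatin, read 8.17, 8.14 and 7.97 at 6 h and 7.07, 7.09 and 6.70 at 72 h and fell by 1.14 (SE 0.13, adjusted p = 1.10e-04). Both were lower in all cultures at 72 h. Bambi, a decoy receptor, rose by 0.78 and Smad9 fell by 0.44 among 23 BMP and ID genes (adjusted p = 0.0222 and 0.048, 8.7% called, median -0.03, centred 0.12 with 1 called higher and 0 lower). Among 24 Wnt targets and inhibitors (12.5%, median -0.03, centred 0.12 with 2 called higher and 0 lower) 2 rose, the feedback scaffold Axin2 by 0.72 and the ligand Wnt5b by 0.81, and the secreted inhibitor Sfrp1 fell by 0.65 (adjusted p = 0.00534, 0.0386 and 0.00906). Of 19 Notch pathway genes (5.26%, median -0.06, centred 0.09 with 0 called higher and 0 lower) the receptor Notch1 alone was called and fell by 0.58 (SE 0.12, adjusted p = 0.0146). When each array was left out in turn, the calls of Dusp1, Ltbp1, Fst and Axin2 held each time. In a fit without 1 array, the call was lost for Egr1 without DMSO 6 h replicate 2 (adjusted p 0.0527) and Sfrp1 without DMSO 6 h replicate 2 (adjusted p 0.0599). With either of 2 arrays left out, the call was lost for Notch1 without DMSO 6 h replicate 2 and DMSO 72 h replicate 1 (adjusted p up to 0.0694). Bambi lost its call without 4 of the 6 (highest adjusted p 0.112). Ier3 and Smad9 lost their call without 5 of the 6 each (highest adjusted p 0.186 and 0.218). Klf4, Jun and Wnt5b lost their call without 6 of the 6 each (highest adjusted p 0.151, 0.126 and 0.132). With arrays centred Smad9, Sfrp1 and Notch1 did not pass (adjusted p = 0.216, 0.0624 and 0.108).

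Among 23 NRF2 antioxidant genes 1 rose and 4 fell (21.7%, median -0.08, centred 0.07 with 1 called higher and 3 lower). Nqo1, a quinone reductase, read 8.35, 8.86 and 8.35 at 6 h and 7.38, 7.31 and 7.48 at 72 h and fell by 1.14 (SE 0.15, adjusted p = 4.49e-04). Gclm, the modifier subunit of glutathione synthesis, read 7.72, 7.82 and 7.71 at 6 h and 6.78, 6.92 and 6.82 at 72 h and fell by 0.91 (SE 0.17, adjusted p = 0.00731). Gstm1, a glutathione transferase that can share probes with its close relatives, read 10.32, 10.11 and 10.06 at 6 h and 9.25, 9.46 and 9.27 at 72 h and fell by 0.84 (SE 0.12, adjusted p = 0.00131). In these 3 the groups were separate and 72 h was lower. Tkt, transketolase, also fell (-0.42). Gsta4, the transferase that conjugates 4-hydroxynonenal, moved the other way, read 8.30, 8.28 and 7.94 at 6 h and 9.23, 9.03 and 9.50 at 72 h and rose by 1.08 (SE 0.23, adjusted p = 0.0146). Of 30 genes of xenobiotic metabolism and transport 1 rose and 1 fell (6.67%, median -0.08, centred 0.07 with 1 called higher and 0 lower): Cyp2e1, the ethanol-oxidising cytochrome P450, read 10.24, 9.87 and 9.96 at 6 h and 10.92, 11.17 and 10.59 at 72 h and rose by 0.87 (SE 0.19, adjusted p = 0.0192), and Aldh3a1, an aldehyde dehydrogenase, fell by 0.58 (SE 0.14, adjusted p = 0.0339). With any single array of the 6 removed, the calls of Nqo1, Gclm and Gstm1 held each time. Gsta4 and Cyp2e1 lost their call without 4 of the 6 each (highest adjusted p 0.0788 and 0.0994). Aldh3a1 lost its call without 5 of the 6 (highest adjusted p 0.143). Tkt lost its call without 6 of the 6 (highest adjusted p 0.21). With arrays centred Tkt and Aldh3a1 did not pass (adjusted p = 0.203 and 0.119).

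Interferon response genes had a median change of -0.33 (-0.18 centred), with 4 of 29 called lower and 0 higher (13.8%), or 3 lower with arrays centred. Stat2, the interferon signal transducer, read 9.16, 9.11 and 8.98 at 6 h and 8.42, 8.44 and 8.25 at 72 h and fell by 0.71 (SE 0.11, adjusted p = 0.00268). Ddx58, the RNA sensor RIG-I, read 7.30, 7.25 and 6.95 at 6 h and 6.32, 6.40 and 6.21 at 72 h and fell by 0.86 (SE 0.17, adjusted p = 0.0107). Mx2, an interferon-induced dynamin-like GTPase, fell by 1.12 (SE 0.28, adjusted p = 0.0367), and Oasl is described above. All 4 had separate groups, while the median of the list at 24 h was 0.09. Of 34 inflammation and chemokine genes 2 rose and 2 fell (11.8%, median 0.02, centred 0.17 with 2 called higher and 2 lower). Lbp, the lipopolysaccharide-binding protein, read 10.41, 10.28 and 10.17 at 6 h and 8.73, 9.05 and 8.87 at 72 h and fell by 1.40 (SE 0.13, adjusted p = 2.21e-05). The chemokine Cxcl12 read 7.71, 7.80 and 7.32 at 6 h and 6.68, 6.64 and 6.32 at 72 h and fell by 1.06 (SE 0.17, adjusted p = 0.00326). Vcam1, an adhesion molecule for leukocytes, read 5.16, 4.93 and 4.40 at 6 h and 5.84, 5.99 and 6.14 at 72 h and rose by 1.16 (SE 0.22, adjusted p = 0.00989). Lbp and Cxcl12 were thus lower, and Vcam1 higher, in every culture at 72 h, and Il1r1, the interleukin 1 receptor, rose by 0.54 (SE 0.13, adjusted p = 0.0286). Of 20 complement and acute phase genes (15%, median -0.07, centred 0.08 with 1 called higher and 2 lower) C3, the central complement component, rose by 0.74 (SE 0.17, adjusted p = 0.0226), and Cd55, which protects cells from complement, fell by 0.78 (SE 0.18, adjusted p = 0.0268), beside Lbp. In fits that left out 1 array, the calls of Stat2, Lbp and Cxcl12 held each time. With 1 array left out, the call was lost for Vcam1 without DMSO 72 h replicate 3 (adjusted p 0.0546). With either of 2 arrays left out, the call was lost for Ddx58 without DMSO 6 h replicate 2 and DMSO 72 h replicate 3 (adjusted p up to 0.058). Il1r1, C3 and Cd55 lost their call without 4 of the 6 each (highest adjusted p 0.149, 0.115 and 0.111). Mx2 lost its call without 6 of the 6 (highest adjusted p 0.148). With arrays centred Mx2 did not pass (adjusted p = 0.0792).

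The circadian clock was examined gene by gene, because cultured cells can keep a rhythm of about a day. Such a rhythm can be at different phases at 6 h and 72 h. A change with time in culture and a difference of phase cannot be told apart here. Of 19 measured clock genes 1 rose and 1 fell (10.5%, median -0.04, centred 0.11 with 3 called higher and 1 lower). Hlf, a PAR-domain factor of the clock output, read 5.44, 5.55 and 5.51 at 6 h and 6.97, 6.46 and 5.97 at 72 h and rose by 0.97 (SE 0.20, adjusted p = 0.0145). Per3, a period repressor, read 7.93, 8.07 and 7.91 at 6 h and 7.51, 7.26 and 7.20 at 72 h and fell by 0.64 (SE 0.13, adjusted p = 0.0126). Neither gene overlapped between the groups, and the 3 values of Hlf at 72 h were widely spread. The activators Arntl (current symbol Bmal1; -0.58, adjusted p = 0.134), Clock (-0.30, adjusted p = 0.375) and Npas2 (0.08, adjusted p = 0.901) were not called. Nor were the repressors Per1 (-0.25, adjusted p = 0.333), Per2 (-0.13, adjusted p = 0.583), Cry1 (-0.04, adjusted p = 0.939), Cry2 (0.14, adjusted p = 0.642) and Nr1d1 (0.33, adjusted p = 0.155), or the activating receptor Rora (0.29, adjusted p = 0.487). Of the output factors, Dbp changed by 0.49 (adjusted p = 0.124), Tef by 0.12 (0.77) and Nfil3 by -0.33 (0.346). The remaining members were Bhlhb2 (Bhlhe40; 0.64, 0.0949), Bhlhb3 (Bhlhe41; -0.11, 0.856), RGD1566380 (Ciart; 0.41, 0.214), Csnk1e (-0.10, 0.681) and Csnk1d (-0.47, 0.0671). With either of 2 arrays left out, the call was lost for Per3 without DMSO 6 h replicate 2 and DMSO 72 h replicate 3 (adjusted p up to 0.0704). Hlf lost its call without 3 of the 6 (highest adjusted p 0.0663). Centred arrays gave 3 calls higher and 1 lower, adding Dbp (adjusted p = 0.0283) and Bhlhb2 (0.0355).

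The cultures at 24 h are compared with the same 6 h arrays. In DMSO at 24 h against 6 h limma called 0 genes (0%), with 987 at an unadjusted p under 0.05, and 0 to 5 genes were called under the other settings. Of the 703 genes called at 72 h, 662 (94.2%) had a 24 h mean between those at 6 h and 72 h, against 46.3% of all genes. The median share of the change reached at 24 h was 36.8% in the called genes. The called genes were chosen for a wide gap between 6 h and 72 h, which favours a mean in between, so the 94.2% and the 36.8% are a description. Of the called rises 134 of 147 lay between, and of the called falls 528 of 556. From 24 h to 72 h limma called 66 genes (0.389%), 15 higher (0.0883%) and 51 lower (0.3%).

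The PCB126 cultures give the same lapse of time under another treatment, on 6 arrays that do not enter the DMSO changes. These arrays do enter the estimate of spread per gene, which both comparisons share. The calls of the DMSO and PCB126 comparisons are therefore not independent of each other. There limma called 962 genes between 6 h and 72 h (5.66%), 253 higher (1.49%) and 709 lower (4.17%), with 538 and 429 when arrays were centred. Of the 703 genes called in DMSO, 576 (81.9%) changed with the same sign in PCB126, against 62.4% of all genes. In PCB126 248 of them were called in the same direction, which is 35.3% of the DMSO calls and 25.8% of the PCB126 calls, and 10 were called in the opposite direction. Of the 147 rises 91 kept their sign and 39 were called, and of the 556 falls 485 kept their sign and 209 were called. As deposited, the rises thus kept their sign no more often than all genes did, and the falls more often. The share of all genes was not split by direction. The median change of all genes was below 0 in both treatments (-0.047 in DMSO and -0.045 in PCB126), which favours shared falls. The split by direction is therefore tied to the deposited scaling. With arrays centred 418 of 531 (78.7%) kept their sign, and this share was not split by direction. The PCB126 count was 533 without replicate 1 at 6 h, 548 without replicate 2 at 6 h and 640 without replicate 2 at 72 h.

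A test of the difference between the time changes called 161 genes (0.948%), 73 with a higher (0.43%) and 88 with a lower change (0.518%) in PCB126, and 66 of them were among the 703. Lcp1, Nupr1 and Cxcl13 changed in PCB126 by 2.66, 1.92 and -2.35, each called, and the difference from DMSO was not called (adjusted p = 0.972, 0.903 and 0.87). Clic5, which rose in DMSO, changed by 0.27 (SE 0.18, adjusted p = 0.453) in PCB126, a difference of -1.89 (SE 0.25, adjusted p = 0.00141). Igf1 read 5.50, 4.81 and 5.45 in PCB126 at 6 h and 4.28, 3.90 and 4.69 at 72 h, and fell there, with a difference of -2.28 (SE 0.35, adjusted p = 0.00356). Igfbp7 changed by -0.40 (SE 0.14, adjusted p = 0.131) and differed by -1.61 (SE 0.20, adjusted p = 0.00125). The rises of Clic5, Igf1 and Igfbp7 with time were thus larger in DMSO than in PCB126. Col14a1 and Fbln2, which fell in DMSO, changed by -0.16 and -0.23 in PCB126 (differences 1.33 (SE 0.24, adjusted p = 0.0115) and 1.19 (SE 0.20, adjusted p = 0.00845)), while Lbp fell further there (difference -1.15 (SE 0.19, adjusted p = 0.00651)).

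Genes of mitosis and replication were also followed in PCB126. Genes of mitosis had a median change of 0.45 in PCB126 against -0.50 in DMSO, with 4 of 33 called higher, and the difference was called in 9 members, all higher in PCB126. Mki67 read 7.42, 7.92 and 7.29 in PCB126 at 6 h and 8.02, 8.28 and 8.11 at 72 h, and its time change differed by 1.45 (SE 0.33, adjusted p = 0.0469). Replication genes had a median of 0.61 in PCB126 with 14 of 30 called higher, and the difference was called in 5 of them. For sterol synthesis the median was 0.13 against -0.34 with 1 called difference, in Dhcr7 (0.77 (SE 0.17, adjusted p = 0.0447)), and for fatty acid synthesis -0.07 against -0.32 with 2. For the amino acid response it was 0.38 against 0.40 with no member called in the difference by limma, and 11 of 31 collagens were called lower. Over all genes 1.49% were called higher and 4.17% lower in PCB126, and the difference was called in 0.948%. With arrays centred the medians in PCB126 were 0.58 for mitosis, 0.74 for replication and 0.26 for sterol synthesis. They were 0.07 for fatty acid synthesis, 0.51 for the amino acid response and -0.09 for collagens. The count of 161 genes was 73, 88, 80 and 88 without replicate 2 or 3 of DMSO at 6 h or replicate 1 or 3 of DMSO at 72 h, and 74 and 90 without replicate 1 or 3 of PCB126 at 6 h.

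**Figure D4:**
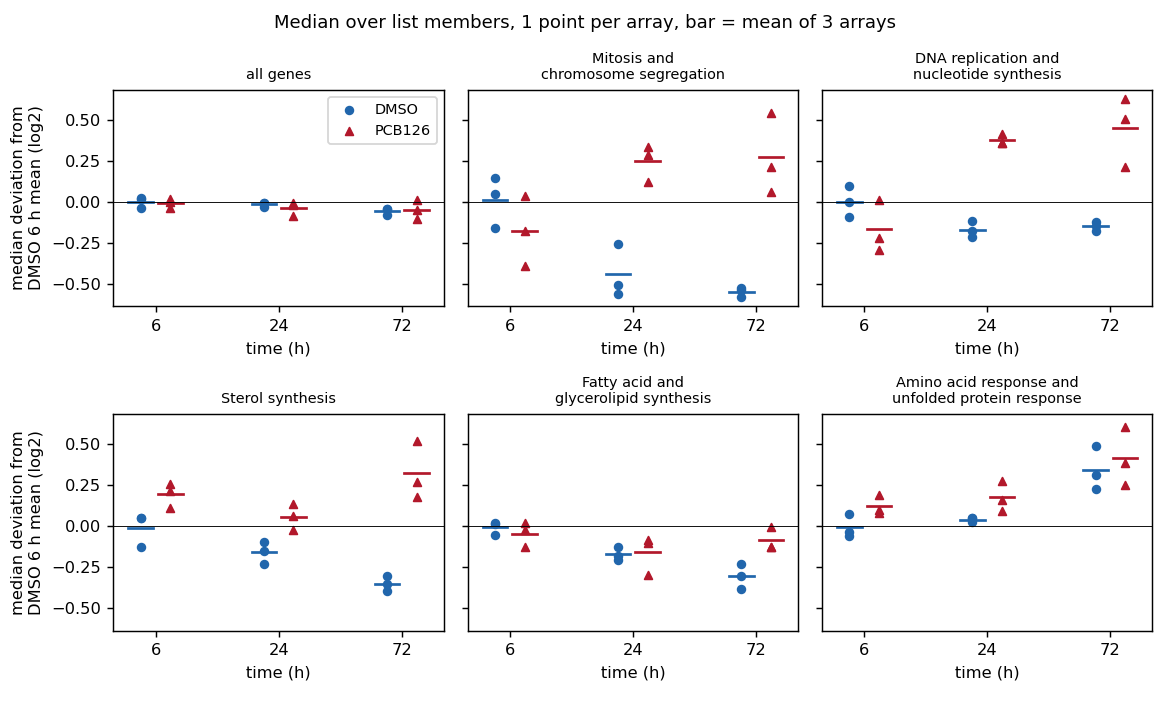
Median over the members of each list of the log2 deviation from the mean of DMSO at 6 h, 1 point per array, circles for DMSO and triangles for PCB126, with bars at the mean of 3 arrays. The mitosis list lies between -0.52 and -0.58 on the 3 DMSO arrays at 72 h and above 0 on all 3 PCB126 arrays at 72 h, and the amino acid response list is higher at 72 h than at 6 h in both.

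**Figure D5:**
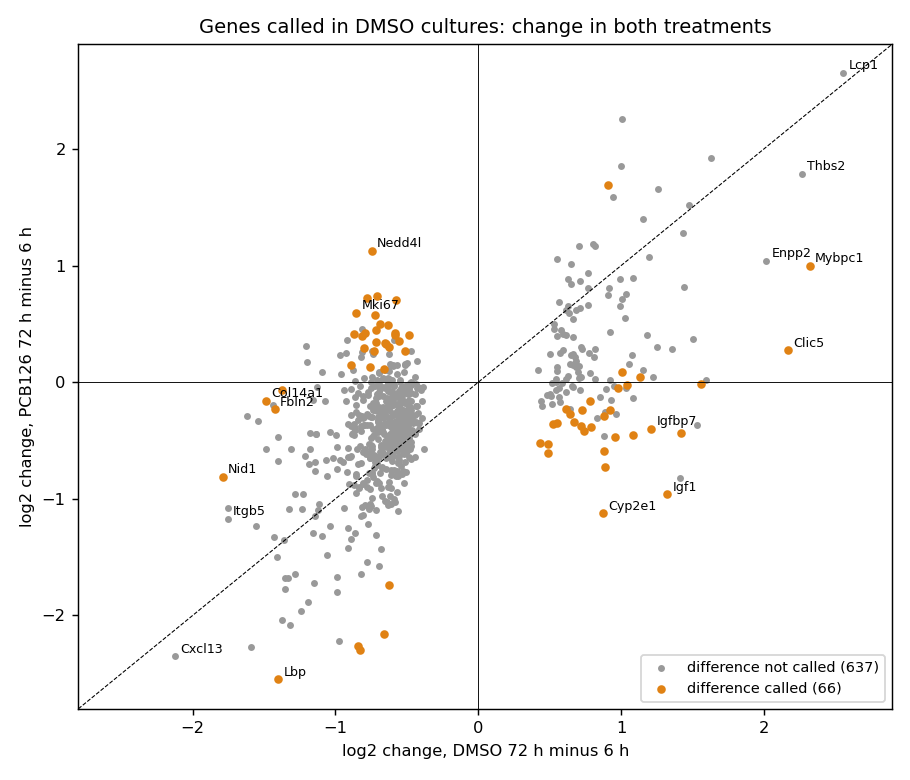
Log2 change from 6 h to 72 h in DMSO (horizontal) and in PCB126 (vertical) for the 703 genes called in DMSO. The dashed line marks equal change, and orange points are the 66 genes whose time change differed between the treatments by limma.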

How the data were processed

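Total RNA of the dishes was extracted with a Qiagen RNeasy Plus Mini kit, labelled with biotin and hybridised to rat exon arrays, per the labels' protocols. The deposited values are log2 expression per probe set, which the authors made by RMA; the submitters' processing notes name Affymetrix Power Tools (1.12.0). The sources used here give neither the RMA version nor the array build. RMA subtracts background and normalises between arrays, which can understate changes at either end of the scale. Detection calls were not used here. The number of arrays, 3 per group, limits the precision.

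Of 1044112 probe sets, 223110 are paired with 1 gene symbol by the platform annotation, 3523 with several and 817479 with none. The median over the probe sets of a symbol gave 16988 gene values (median 10 probe sets; 657 genes had 1). Symbols can be old: 12943 are current in the GRCr8 gene list, 3982 are older symbols and 63 had no match. Of 952 different symbols in 37 gene lists, 876 were measured (841 by symbol, 20 by an older symbol, 15 by a RefSeq synonym). Some genes are in more than 1 list and count in each. Of 144 named genes, 108 matched 1 promoter.

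All 18 arrays entered one limma 3.58.1 fit in R 4.3.3 (with matrixStats 1.5.0, and data.table at version 1.17.8), a mean per group, without intensity trend, with 12 residual and 3.89 prior degrees of freedom. Tests were two-sided, and p-values were adjusted by Benjamini-Hochberg over all genes with a threshold of 0.05. Simulated data were used to test the procedure, with 50 genes changed by each amount. Changes of 0.5, 1, 1.5 and 2 were called in the right direction in 8%, 70%, 82% and 100%, with 4 false calls. A change near 0.5 that was not called is therefore not shown to be absent. The simulated noise was independent between arrays and held no shift of whole arrays. Alternatives changed the probe set summary, filters, scaling, variance model, arrays in the fit and the replicate block.

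Named genes are the 12 strongest called rises and the 12 strongest called falls whose groups do not overlap, up to 4 called members per list with the largest change (or the 1 largest where none was called), every clock gene, and the 4 largest differences per direction between the treatments. Other called list members are given with their change alone. The members and lists were chosen with earlier results of these data known.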

Additional observations from a re-analysis of the deposited data

Results flagged for a closer look

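These genes are listed because their change from 6 h to 72 h differed between DMSO and PCB126 cultures by limma's test of the difference itself, adjusted over all genes. The difference contains the DMSO arrays with opposite sign, so a high or low DMSO value raises it too. The count of these calls was 73 to 185 when 1 array was left out, and calls of single genes without 1 array are not given here. Array quality weights, lower for arrays that deviate more, were 0.372, 0.469 and 2.95 for replicates 1, 2 and 3 of PCB126 at 72 h.

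Genes that rose in DMSO and had a smaller change or a fall in PCB126 were Mybpc1, the myosin-binding protein (2.32 in DMSO, 1.0 in PCB126, difference -1.32, adjusted p = 0.0152), Clic5, the cortical channel protein (2.17 in DMSO, 0.27 in PCB126, difference -1.89, adjusted p = 0.00141) and C1qtnf6, the secreted C1q relative (1.56 in DMSO, -0.02 in PCB126, difference -1.58, adjusted p = 0.0254). In the growth factor axis they were Igf1, the ligand (1.32 in DMSO, -0.96 in PCB126, difference -2.28, adjusted p = 0.00356), Igfbp7, a binding protein (1.21 in DMSO, -0.40 in PCB126, difference -1.61, adjusted p = 0.00125) and Igfbp2, a further binding protein (1.13 in DMSO, 0.05 in PCB126, difference -1.08, adjusted p = 0.0297). Others were Gsta4, a glutathione transferase (1.08 in DMSO, -0.45 in PCB126, difference -1.53, adjusted p = 0.0297), Cyp2e1, a cytochrome P450 (0.87 in DMSO, -1.12 in PCB126, difference -1.99, adjusted p = 0.00163), C3, a complement component (0.74 in DMSO, -0.42 in PCB126, difference -1.16, adjusted p = 0.0293) and Cldn15, a claudin (0.67 in DMSO, -0.34 in PCB126, difference -1.01, adjusted p = 0.0342).

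Genes that fell in DMSO and had a smaller fall or a rise in PCB126 were Nid1, nidogen 1 (-1.79 in DMSO, -0.81 in PCB126, difference 0.98, adjusted p = 0.0447), Col14a1, a collagen (-1.49 in DMSO, -0.16 in PCB126, difference 1.33, adjusted p = 0.0115) and Fbln2, fibulin 2 (-1.42 in DMSO, -0.23 in PCB126, difference 1.19, adjusted p = 0.00845). Further ones were Mki67, the Ki-67 antigen (-0.86 in DMSO, 0.59 in PCB126, difference 1.45, adjusted p = 0.0469), Pole, a DNA polymerase (-0.63 in DMSO, 0.30 in PCB126, difference 0.93, adjusted p = 0.0437), Egr1, an immediate early factor (-0.89 in DMSO, 0.15 in PCB126, difference 1.04, adjusted p = 0.0451) and Vim, vimentin (-0.48 in DMSO, 0.40 in PCB126, difference 0.88, adjusted p = 0.0185). Among enzymes they were Dhcr7, of cholesterol synthesis (-0.66 in DMSO, 0.11 in PCB126, difference 0.77, adjusted p = 0.0447), Fads2, a desaturase (-0.72 in DMSO, 0.34 in PCB126, difference 1.06, adjusted p = 0.0447) and Aldh3a1, an aldehyde dehydrogenase of the aryl hydrocarbon receptor battery (-0.58 in DMSO, 0.71 in PCB126, difference 1.28, adjusted p = 0.00502). Also in this group was Nedd4l, a ubiquitin ligase (-0.75 in DMSO, 1.12 in PCB126, difference 1.87, adjusted p = 0.00356). One gene fell in both and further in PCB126, Lbp, the lipopolysaccharide-binding protein (-1.40 in DMSO, -2.55 in PCB126, difference -1.15, adjusted p = 0.00651).

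Genes not called in DMSO were Cyp1a1, a cytochrome P450 induced by the aryl hydrocarbon receptor (0.04 in DMSO, 3.36 in PCB126, difference 3.31, adjusted p = 3.01e-04), Akr1c14, an aldo-keto reductase with close paralogs (0.51 in DMSO, 3.73 in PCB126, difference 3.23, adjusted p = 0.0239) and Cacnb2, a calcium channel subunit (0.03 in DMSO, 1.96 in PCB126, difference 1.93, adjusted p = 0.00532), with a larger change in PCB126, and Ogn, a leucine-rich proteoglycan (-0.20 in DMSO, -2.55 in PCB126, difference -2.35, adjusted p = 0.00262) and Adora2a, an adenosine receptor (-0.14 in DMSO, -2.22 in PCB126, difference -2.08, adjusted p = 1.62e-04), with a larger fall.

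Outside the gene values, 48 of 821002 probe sets with no symbol or several were called between DMSO 6 h and 72 h (0.00585%), 13 higher and 35 lower. Of the 223110 probe sets with 1 symbol 306 were called (0.137%).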

How the results depend on the processing

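No called gene named in the text changed sign under any setting run, whereas list medians near 0 changed sign with arrays centred, and the counts moved. For DMSO at 72 h against 6 h, with 703 genes called, the mean over probe sets called 1346, array quality weights 1304 and the 2 groups alone 73. For PCB126 (962) these gave 1601, 1887 and 188. For the difference between treatments (161) they gave 316, 414 and 67, and an intensity trend gave 258. For DMSO at 24 h (0) the settings gave 4 (mean over probe sets), 4 (bright probe sets), 2 (at least 4 probe sets), 3 (bright genes), 5 (arrays centred), 4 (quantile normalisation) and 4 (intensity trend). Bright probe sets alone gave 250 calls outside the gene values in place of 48.

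Leaving out 1 array at a time gave 161 to 543 genes for DMSO at 72 h (20.6% to 31.7% higher), 0 to 1 at 24 h, 533 to 1129 for PCB126, 73 to 185 for the difference and 4 to 34 probe sets. Leaving out a replicate number from all groups gave 37 to 61, 226 to 320 and 0 to 3. Blocking on the replicate number gave 790, 0, 1017 and 176 genes and 38 probe sets. No pairing by number was assumed in the main fit. Same-numbered DMSO arrays at 6 h and 72 h had deviations correlated at 0.0068, -0.0262 and -0.0018. Over all groups 6 of 45 same-numbered pairs exceeded 0.1, the highest at 0.25. Arrays with different numbers were not compared in this way, so whether the numbers pair the samples was not settled.

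Of the called genes tabulated, 144 in number, 47 lost the call with arrays centred, 36 with quantile normalisation, 114 in the 2 groups alone, 40 in the 9 DMSO arrays alone and 36 to 96 without 1 array. The cause was not tested. Fewer arrays leave fewer degrees of freedom. RMA limits small changes of dim probe sets, and 3504 genes had a mean level up to 4.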

Other observations

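By mean level, the median change between DMSO 6 h and 72 h was 0.04 in the 3504 genes with a log2 value up to 4, -0.17 in the 1772 genes between 6 and 7, -0.16 in the 2437 genes between 7 and 8 and -0.04 in the 2568 genes above 9. In PCB126 cultures the same 4 groups of genes had medians of 0.03, -0.12, -0.14 and -0.04. The DMSO calls in these groups were 15 higher and 6 lower, 16 and 110, 21 and 174, and 46 and 109.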
